A study of Mus musculus with 20 samples.

Results

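Transcript levels after longer heat were set against those after shorter heat in mouse fibroblasts that carry heat shock factor 1. The comparison used the 7 heated HSF1 +/+ arrays (WT) of a series of 20. The late window held the arrays at 3, 4, 6 and 8 h of heat shock (n = 4), and the early window those at 0.5, 1 and 2 h (n = 3). The 3 unheated WT arrays gave the zero of the level scale. The 10 HSF1 -/- arrays (KO), 7 heated and 3 unheated, were used where the genotypes were compared, and all 20 arrays entered the estimate of the spread in each test, those within WT included. Each array held Cy5-labelled sample against a Cy3-labelled pool of mRNA from heated (1 h) and unheated fibroblasts. The heat temperature, whether cells recovered before harvest, and the origin and number of the cell lines are not given in the sources used here.

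Heat unfolds proteins, and cells answer by making chaperones, which bind unfolded chains and help them refold. HSF1 is the transcription factor that drives this answer: it binds heat shock elements in the promoters of chaperone genes. The earliest transcripts of a heat response rise and fade quickly, while others build up for as long as the stress or its aftermath lasts.

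A level here is the log2 ratio of a gene on an array, centred on the array's median, minus the mean of the 3 unheated arrays of the same genotype. It says how a transcript stood relative to unheated cells and cannot be set against the level of another gene. The number of values per heated WT array was 39437 to 42115, the medians lay between -0.50 and -0.18 and the median absolute deviations between 0.81 and 1.18 before centring. Each hour was measured on 1 array, so the spread within a window includes change over time, and a p-value reflects only how these arrays scatter. The image numbers in the labels run from late to early hours, apart from 1 unheated array placed between 1 and 0.5 h, so the order of the arrays and the time of heating cannot be told apart. No level of Hsf1 itself is given, since 0 single-gene probes were listed for it. The ratio to a pool of the same kind of cells gives no absolute level, so the presence of fibroblast markers could not be checked.

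Between the window means, 2 of 10625 genes passed the test, which is 0.0188% (limma, Benjamini-Hochberg adjusted p under 0.05). Slc12a7, which encodes a potassium-chloride cotransporter of the cell membrane, was higher late, and Cyb561d1, a member of the cytochrome b561 family, was lower late. At an unadjusted p under 0.05 there were 1527 genes. All 4 late arrays lay above all 3 early arrays for 668 genes (6.29%) and below them for 696 genes (6.55%), together 12.8% of all genes. With only the 10 WT arrays in the fit the window test called 0 genes. The count of 2 also depended on single arrays: it was 175 without the 2 h array, 43 without 4 h, 1 without 3 h or 8 h, and 0 without 0.5 h, 1 h or 6 h.

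Slc12a7 stood at 0.90, 0.86, 1.10 and 0.50 at 3, 4, 6 and 8 h, against -0.50, -0.25 and -0.23 at 0.5, 1 and 2 h. The step lay between 2 and 3 h, and the windows did not overlap. The late minus early difference was 1.17 ± 0.18 (SE, 2.25-fold, adjusted p = 0.0461). Cyb561d1 stood at -0.54, -0.68, -0.54 and -0.94 at 3, 4, 6 and 8 h, against 0.93, 0.44 and 0.12 at 0.5, 1 and 2 h. All early arrays lay above the unheated mean and all late arrays below it, so the windows did not overlap. Its difference was -1.17 ± 0.19 (SE, adjusted p = 0.0461). Neither gene passed the window test without 0.5 h (adjusted p = 0.303 for Slc12a7 and 0.337 for Cyb561d1).

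Because the arrays of a window differ in time, a second test fitted a slope on the logarithm of heating time, in log2 units per doubling, through the 7 WT arrays. It called 622 genes (5.85%), of which 350 rose (3.29%) and 272 fell (2.56%). The slopes of the genes that rose had a median of 0.37 and reached 1.46, and those of the genes that fell had a median of -0.29 and reached -1.38. Of the genes that rose and had all 7 values, 224 of 342 were highest at 8 h, against 1667 of all 10064 genes with 7 values. Of those that fell, 245 of 266 were highest at 0.5 h, against 2346 of 10064. A choice by slope on these hours favours peaks on the first or last array, so these counts only describe the calls. The 0.5 h array carried much of this result, and of the heated WT arrays it had the fewest values (39437) and the widest spread. Its median absolute deviation was 1.18. Without this array the slope test called 39 genes, 31 with a rise and 8 with a fall, and 32 of them were among the 622. Without the 8 h array it called 304 genes. With any other array left out it called 494 to 768. With the spread taken from the 7 heated WT arrays alone it called 60 genes, 49 with a rise and 11 with a fall. After the arrays were scaled to the same width it called 400, of which 261 rose and 139 fell.

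**Figure D1:**
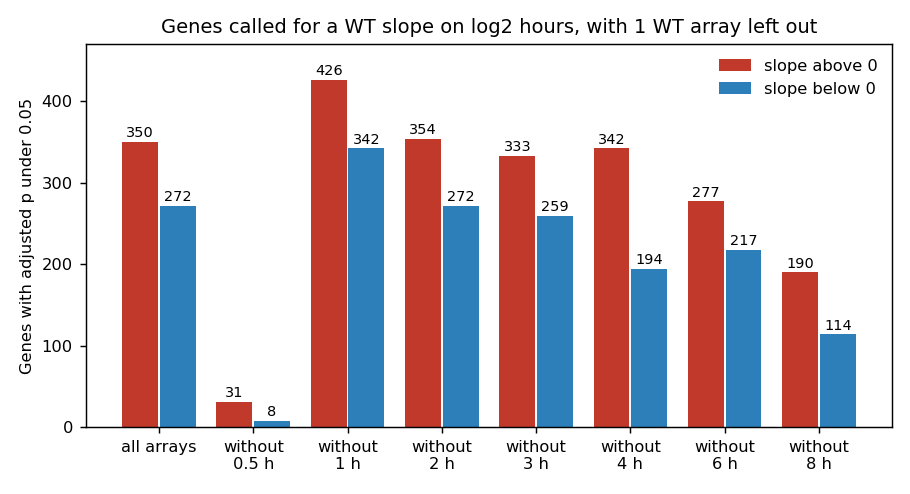
Number of genes (vertical axis) with adjusted p under 0.05 for a slope on log2 hours in WT cells, with all arrays and with each heated WT array left out in turn; red bars are slopes above 0 and blue bars slopes below 0. The bars without the 0.5 h array stand at 31 and 8 genes, against 350 and 272 with all arrays.

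The fitted slopes were sorted by where the early window stood relative to unheated cells, as a description only, since both quantities use the early arrays. Of the genes that rose, 250 were within 0.5 of unheated cells in the early window and rose afterwards, 51 were already raised and rose further, and 49 had dipped early and recovered. Of the genes that fell, 217 were near unheated cells in the early window, 47 had been raised early, and 8 were already lowered. Gradual courses were few: 19 genes rose and 13 fell at every step through the 7 hours, of which 12 and 7 passed the slope test. Among the steady risers was Ern1, the sensor kinase IRE1 of the unfolded protein response, at 0.46, 0.84, 1.26 and 1.35 from 3 to 8 h, against -0.19, 0.07 and 0.41 from 0.5 to 2 h. Its slope was 0.40 ± 0.11 (SE, adjusted p = 0.0404), with adjusted p = 0.284 without 0.5 h and also past 0.05 without 4, 6 or 8 h. Bzw2, a regulator of translation initiation, was among the steady fallers, with a slope of -0.32 ± 0.04 (SE, adjusted p = 0.000524). It stood at -0.45, -0.79, -0.82 and -0.98 from 3 to 8 h, against 0.23, 0.04 and -0.33 from 0.5 to 2 h.

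Known heat-inducible genes included many risers. Of 30 listed genes 27 were measured, and by slope 12 of them rose and 0 fell, against 3.29% and 2.56% of all genes. Their median late minus early difference was 0.65, against -0.02 for all genes, of which 5093 were higher late and 5532 lower. In 7 of the 27 all late arrays lay above all early arrays, and in 0 below. The median level of the list was 1.08, 0.77, 1.13 and 1.06 from 3 to 8 h, against 0.07, 0.41 and 0.84 from 0.5 to 2 h. In the window test 0 of the 27 passed, with 22 higher late and 5 lower. At an unadjusted p under 0.05, 13 were higher late and 0 lower, against 758 and 769 of all 10625 genes. The rise by slope rested on the 0.5 h array for all but Cryab of the 12: without it the other 11 had slopes of 0.13 to 0.71 and did not pass. For Atf3 and Zfand2a other single arrays also decided the call.

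The promoters of several of these risers hold the letters of a heat shock element, and the stretches around them are shown because HSF1 is known to bind such elements; a match is a description and not a measured binding site. The letters searched on both strands were GAANNTTC and TTCNNGAA, in the window of 250 bases before to 50 after the start of each gene (RefSeq, GRCm38.p6). Capitals mark the matches, each sequence runs 5′ to 3′ on the strand of its gene, and only matches that end before the start site are printed.
Hspa1a: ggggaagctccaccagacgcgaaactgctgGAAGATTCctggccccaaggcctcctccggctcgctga
Hspa1b: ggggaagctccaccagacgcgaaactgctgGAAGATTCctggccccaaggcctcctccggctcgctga
Hsph1: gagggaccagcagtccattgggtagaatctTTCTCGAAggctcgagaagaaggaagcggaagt
Hspd1: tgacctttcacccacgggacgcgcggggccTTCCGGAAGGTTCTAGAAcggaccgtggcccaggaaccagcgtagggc
Hspe1: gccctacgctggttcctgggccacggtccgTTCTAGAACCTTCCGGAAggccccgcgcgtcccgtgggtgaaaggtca
Zfand2a: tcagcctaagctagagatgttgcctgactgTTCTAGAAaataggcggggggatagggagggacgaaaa
The stretch of Hspa1a lies at chr17:34972223-34972290 and that of Hspa1b at chr17:34959305-34959372, both on the minus strand, and their letters are identical. In both the match begins 104 bases before the start. The stretch of Hsph1 lies at chr5:149636337-149636399 and that of Zfand2a at chr5:139484650-139484717, on the minus strand. Hspd1 (minus strand) and Hspe1 (plus strand) are neighbours read in opposite directions from 1 shared stretch, chr1:55088029-55088106, in which 3 overlapping matches follow each other. Promoters were found for 10 of the 12 risers, and not for Cryab and Hsp90aa1. Of their 12 promoters 8 (66.7%) held a match, from 7 genes, with the same element of Hsph1 counted in more than 1 promoter. The known heat-inducible genes that were not called had promoters for 10 of 15, and 4 of 12 promoters (33.3%) held a match. For all genes tested the share was 11.9%. Among all 32851 mouse promoters the share was 15.1%. Promoters of all genes that rose held a match in 14.6%, and those of all genes that fell in 13.6%. The list was drawn up from genes known to respond to heat, many through HSF1, so a high share in it follows from the choice.

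The inducible HSP70 genes, whose products refold damaged proteins in the cytosol, had most of their rise within the early window. Hspa1a stood at 6.29, 5.03, 6.40 and 5.61 from 3 to 8 h, against 0.58, 4.55 and 5.80 from 0.5 to 2 h. The windows overlapped, since the 2 h array lay above those at 4 and 8 h. Its window difference of 2.19 ± 0.75 did not pass (adjusted p = 0.187), while its slope of 1.13 ± 0.21 did (SE, adjusted p = 0.00571). Without the 0.5 h array the slope was 0.36 (adjusted p = 0.477). Hspa1b stood at 5.64, 4.58, 6.05 and 4.85 from 3 to 8 h, against 0.69, 4.03 and 4.98, with a slope of 1.00 ± 0.19 (adjusted p = 0.00595). Each was read by 1 probe, and near-identical transcripts can bind each other's probes.

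Hsph1, the HSP110 nucleotide exchange factor that recharges HSP70, was lowest at 0.5 h and highest at 3 h: 2.53, 2.08, 2.39 and 2.27 from 3 to 8 h, against -0.51, 1.30 and 1.94 from 0.5 to 2 h. All late arrays lay above all early ones. Its slope was 0.65 ± 0.10 (SE, adjusted p = 0.00157), and 0.32 without 0.5 h (adjusted p = 0.226). Hsp90aa1, the inducible HSP90 that matures kinases and receptors, stayed between 1.33 and 1.38 on all 4 late arrays, against 0.05, 0.51 and 1.04 early. It thus reached a plateau by 3 h, with a slope of 0.35 ± 0.06 (adjusted p = 0.00246) and 0.28 without 0.5 h (adjusted p = 0.198). This plateau is that of a mean over 11 probes that disagreed: 9 were higher late, and late minus early ran from -0.77 to 1.17. Of the 26 measured genes of the cytosolic HSP70 and HSP110 system 3 rose by slope (Hspa1a, Hspa1b and Hsph1) and 0 fell. Of the 8 of HSP90 and its co-chaperones 1 rose (Hsp90aa1) and 0 fell, where 3.29% of all genes rose and 2.56% fell.

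Not all chaperone genes climbed between the windows. Dnajb1, the J-domain partner that hands substrates to HSP70, stood at 2.50, 1.64, 2.37 and 1.95 from 3 to 8 h, against 1.16, 2.06 and 2.14 from 0.5 to 2 h. It was already raised on the first heated array and the windows overlapped, with a slope of 0.17 ± 0.09 (adjusted p = 0.263). Hspa8, the constitutive HSP70, stood at 1.42, 0.64, 1.28 and 0.65 late, against 0.32, 0.47 and 0.84 early (slope 0.16 ± 0.08, adjusted p = 0.238). Bag3, a co-chaperone that links HSP70 to autophagy, was highest at 2 h, with 1.55. Its other heated WT arrays lay between 0.03 and 0.70. Hspa5, the HSP70 of the endoplasmic reticulum, stayed between -0.09 and 0.36 late and between -0.27 and -0.03 early.

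Small heat shock proteins hold unfolded chains in a state from which other chaperones can refold them. Of 7 measured, 2 rose by slope (Cryab and Hspb8) and 0 fell, against 3.29% and 2.56% of all genes. Cryab, the αB-crystallin, stood at 1.08, 0.60, 1.13 and 1.21 from 3 to 8 h, against -0.17, -0.15 and 0.26 from 0.5 to 2 h. At 2 h it lay just above the highest unheated WT array (0.14). Most of its rise came later, and the windows did not overlap. The window difference was 1.03 ± 0.17 (SE, 2.04-fold) and just missed the threshold (adjusted p = 0.0524). The slope was 0.39 ± 0.06 (adjusted p = 0.00156), and it passed with any 1 WT array left out (0.35 to 0.46, adjusted p at most 0.0324). Hspb8 stood at 1.38, 0.71, 1.23 and 1.06 late, against -0.03, 0.27 and 0.77 early. Its slope was 0.30 ± 0.07 (adjusted p = 0.0166), and 0.26 without 0.5 h (adjusted p = 0.349). Hspb1 did not pass (slope 0.41 ± 0.13, adjusted p = 0.0722): it stood between 1.32 and 2.44 late, against 0.14, 1.51 and 1.82 early.

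Both subunits of the mitochondrial chaperonin rose by slope. Hspd1, the HSP60 barrel, stood at 0.78, 0.77, 0.85 and 0.94 from 3 to 8 h, against -0.32, 0.34 and 0.49 from 0.5 to 2 h. Hspe1, the HSP10 lid of that barrel, stood at 1.22, 0.83, 1.15 and 1.16 late, against -0.20, 0.22 and 0.65 early. In both, all late arrays lay above all early ones. The slopes were 0.29 ± 0.05 for Hspd1 (adjusted p = 0.00457) and 0.35 ± 0.07 for Hspe1 (adjusted p = 0.00936). Without 0.5 h they were 0.20 (adjusted p = 0.287) and 0.31 (adjusted p = 0.281). Of the 14 measured mitochondrial chaperones and proteases these 2 rose and 1, the HSP90 relative Trap1, fell (slope -0.19 ± 0.06, adjusted p = 0.0457). Among all genes 3.29% rose and 2.56% fell.

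**Figure D2:**
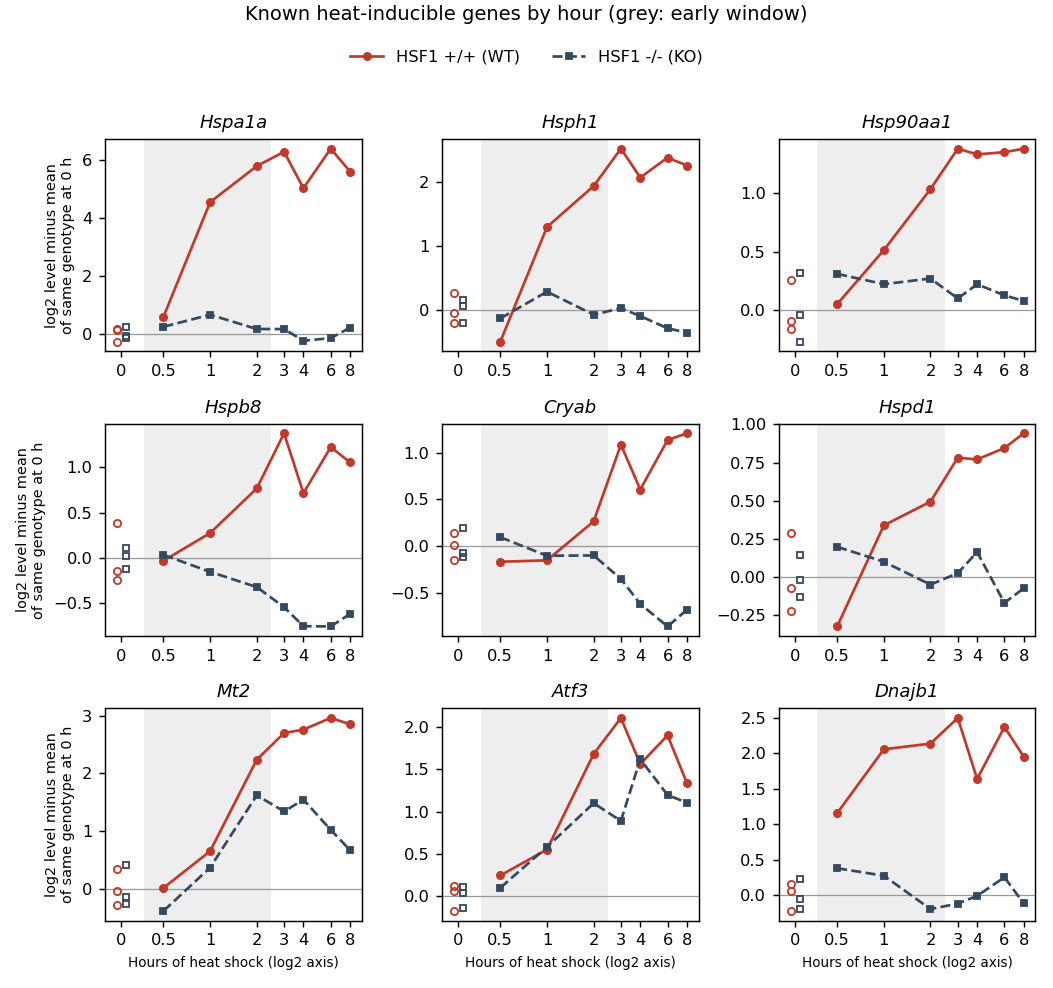
Levels of 9 known heat-inducible genes (vertical axis, log2 minus the mean of unheated cells of the same genotype) by hours of heat shock on a log2 axis, with 1 array per point; red circles are WT, dark squares KO, open symbols the 3 unheated arrays of each, and grey marks the early window. Hspa1a and Dnajb1 reach most of their WT level by 1 to 2 h, while Cryab lies above the unheated range of WT from 2 h on and stands at 0.60 to 1.21 late.

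Metallothioneins bind zinc and other metals and are induced by the factor MTF1 through metal response elements. Mt2 stood at 2.70, 2.76, 2.96 and 2.85 from 3 to 8 h, against 0.01, 0.65 and 2.24 from 0.5 to 2 h, and Mt1 at 1.69, 1.22, 1.44 and 1.52, against 0.11, 0.54 and 0.91. Late arrays lay above early arrays for both, although only 3 of the 4 probes of Mt1 were higher late (late minus early -0.29 to 1.60). The slopes were 0.79 ± 0.13 for Mt2 (adjusted p = 0.00185) and 0.37 ± 0.09 for Mt1 (adjusted p = 0.0192). Without 0.5 h they were 0.71 (adjusted p = 0.135) and 0.32 (adjusted p = 0.354). The element's core was searched as TGCACNC or TGCGCNC on both strands, and is shown in capitals for the matches that end before each start site.
Mt1: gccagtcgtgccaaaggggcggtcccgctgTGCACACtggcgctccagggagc
Mt2: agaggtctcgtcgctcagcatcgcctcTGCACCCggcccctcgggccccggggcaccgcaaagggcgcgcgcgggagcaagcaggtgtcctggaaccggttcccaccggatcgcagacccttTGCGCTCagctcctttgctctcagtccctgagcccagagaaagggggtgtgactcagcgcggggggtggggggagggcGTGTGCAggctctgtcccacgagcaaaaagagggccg
These stretches lie at chr8:94179036-94179088 (Mt1) and chr8:94172368-94172604 (Mt2), on the plus strand. The core is common: 34.5% of the promoters of all genes tested held it, against 32.7% for genes that rose. Of the 25 measured antioxidant and metal response genes these 2 rose and 0 fell, against 3.29% and 2.56% of all genes. Hmox1, the haem-degrading oxygenase, stayed between -0.48 and 0.77 late and between -0.27 and 0.31 early.

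Stress-activated transcription factors peaked at different hours. Atf3, a repressor and activator of the ATF family, stood at 2.11, 1.56, 1.90 and 1.34 from 3 to 8 h, against 0.24, 0.55 and 1.68. Its slope was 0.37 ± 0.10 (adjusted p = 0.0326). The call was lost without 0.5 h (adjusted p = 0.558), 1 h (adjusted p = 0.0718) or 6 h (adjusted p = 0.068). Fos and Egr1, immediate early factors, were highest inside the early window. Fos read 1.48 at 2 h, and its late arrays lay between 0.52 and 0.86. Egr1 read 1.62 at 1 h, and its late arrays lay between 0.24 and 1.11. Neither passed (slope 0.02 for both, adjusted p = 0.937 for Fos and 0.96 for Egr1). Ddit3, the stress factor CHOP, was highest at 4 h with 1.21, and its slope did not pass (adjusted p = 0.366). Of 24 measured immediate early genes 2 rose (Atf3 and Csrnp1) and 1 fell, the matrix-associated Ccn1 (slope -0.53 ± 0.13, adjusted p = 0.0249). The shares of all genes were 3.29% and 2.56%. Ccn1 had no value at 1 h, and stood at 0.82 at 0.5 h and -0.56 at 2 h. For Ccn1 only 5 of the 7 heated WT arrays could be left out in turn. Its slope passed in 4 of these fits (highest adjusted p = 0.0523).

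Zfand2a, a partner of the proteasome induced by stress, stood at 1.72, 0.83, 1.42 and 1.20 late, against -0.01, 0.75 and 1.18 early. Its slope was 0.29 ± 0.08 (adjusted p = 0.0386), and it was lost without 0.5 h (adjusted p = 0.75) or 6 h (adjusted p = 0.0753). Ube2g1, a ubiquitin-conjugating enzyme, fell: it stood at -0.36, -0.35, -0.68 and -0.63 late, against 0.50, 0.44 and 0.18 early. Its slope was -0.33 ± 0.07 (adjusted p = 0.0092), and -0.40 without 0.5 h (adjusted p = 0.109). Of 36 measured proteasome subunits 0 rose and 0 fell, with 29 lower late (5532 of 10625 for all genes) at a median difference of -0.22. At an unadjusted p under 0.05 in the window test, 1 subunit was higher late and 1 lower, against 758 and 769 of all 10625 genes.

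Genes called by slope whichever single WT array was left out numbered 29, of which 26 rose and 3 fell. P3h3, a collagen prolyl hydroxylase, had the smallest p: it stood at 2.75, 2.35, 2.91 and 3.55 from 3 to 8 h, against -0.11, 1.16 and 1.74 from 0.5 to 2 h. Its slope was 0.84 ± 0.07 (SE, adjusted p = 1.75e-05), a rise that had begun by 1 h and was largest at 8 h. Lats1, a kinase of the Hippo pathway, stood at 2.19, 1.78, 2.12 and 2.74 late, against -0.27, 0.98 and 1.04 early (slope 0.67 ± 0.07, adjusted p = 4.28e-05). Loxl2, an enzyme that cross-links collagen, stood at 2.96, 2.03, 2.82 and 3.35 late, against -0.33, 1.08 and 1.59 early (slope 0.85 ± 0.10, adjusted p = 6.48e-05). Others among the 26 were the kinesin Kif28, the nuclease gene Exo5, the vesicle factor Scfd1, the interferon receptor chain Ifnar1, the purine synthesis enzyme Adsl and the mitochondrial ribosomal protein Mrpl10. Kif28 stood at 3.17, 2.30, 3.20 and 3.62 late, against -0.31, 1.23 and 1.73 early, nearly the course of P3h3 and Loxl2. Of the 26 risers 25 were highest at 8 h, which the choice by slope favours, and 24 were lower at 4 h than at 3 h. The lower 4 h value was not particular to them: the median of the known heat-inducible genes was 1.08 at 3 h and 0.77 at 4 h. The 4 h array also had the smallest median absolute deviation of the heated WT arrays (0.81, against 1.1 at 3 h). Of the 26, 20 were read by 1 probe. Whether their probes bind 26 separate transcripts was not tested, since probe sequences were not used here.

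Most of these persistent risers also rose in cells without HSF1. Of the 26 that rose in WT cells, 24 did so in KO cells by slope. In KO cells the slope test called 709 of all genes (6.67%), of which 315 rose (2.96%) and 394 fell (3.71%). P3h3 had a slope of 0.84 in WT cells and 0.86 in KO cells, and Lats1 0.67 and 0.77. The exceptions were Uspl1 and Cryab. Uspl1, a SUMO protease of Cajal bodies, stood at 2.22, 1.66, 2.45 and 2.65 late, against 0.07, 0.45 and 1.49 early. Its slope was 0.67 ± 0.08 in WT cells (adjusted p = 0.000102) and 0.05 in KO cells (adjusted p = 0.801). The difference of the slopes, 0.62 ± 0.11, did not pass (adjusted p = 0.0721). Of the 3 that fell, Thbs1 and Bzw2 also fell in KO cells, and Cyb561d1 had a KO slope of -0.02 (adjusted p = 0.909) with a difference of the slopes of -0.45 ± 0.09 (adjusted p = 0.0783).

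**Figure D3:**
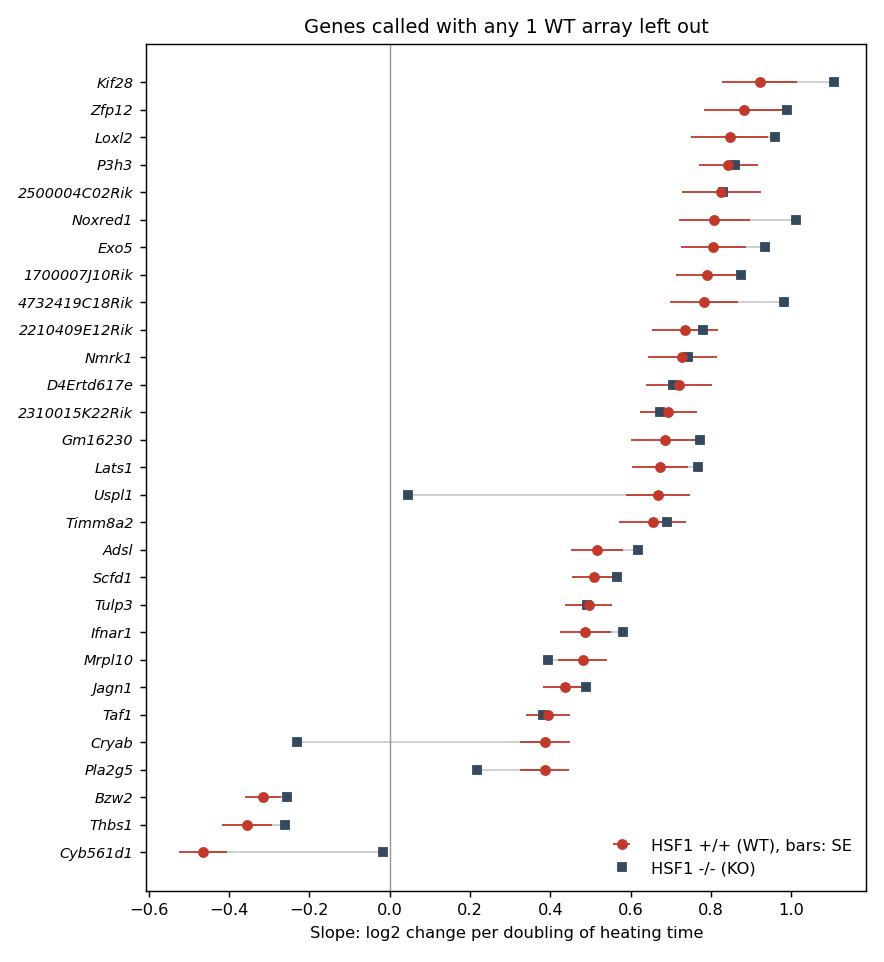
Slopes (horizontal axis, log2 per doubling of heating time) of the 29 genes called with any single WT array left out; red circles are WT with SE bars and dark squares KO. Most squares lie near their circles, and those of Uspl1, Cryab and Cyb561d1 lie far from them.

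Cryab was the 1 gene whose change between the windows differed between the genotypes at an adjusted p under 0.05 (0.00941% of genes, limma interaction). In KO cells it stood at -0.35, -0.62, -0.86 and -0.68 from 3 to 8 h, against 0.09, -0.10 and -0.10 from 0.5 to 2 h. It thus moved down in KO cells while it moved up in WT cells (KO slope -0.23, adjusted p = 0.0311). The WT minus KO difference in late minus early was 1.62 ± 0.24 (SE, adjusted p = 0.0413), and in slopes it was 0.62 ± 0.09 (adjusted p = 0.0176). The window call did not hold when WT and KO arrays of the same hour were treated as pairs (adjusted p = 0.583). It was also lost with 1 probe per gene (adjusted p = 0.185) or when the 0.5, 1, 3, 6 or 8 h WT array was left out (adjusted p = 0.13 to 0.223). At an unadjusted p under 0.05, 826 genes differed between the genotypes.

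Of the known heat-inducible genes Cryab alone had an interaction past the threshold. Of the 27 known heat-inducible genes 0 rose and 2 fell by slope in KO cells, against 2.96% and 3.71% of all genes there. Hspa1a stood between -0.24 and 0.21 on the late KO arrays, against 0.16 to 0.66 on the early ones, a KO slope of -0.12 (adjusted p = 0.815). Its difference in late minus early, WT minus KO, was 2.55 ± 1.06 (adjusted p = 0.618). For Hsph1 the difference of the slopes was 0.73 ± 0.15 (adjusted p = 0.097). Across all genes, 159 rose by slope in both genotypes, which is 45.4% of the WT risers and 50.5% of the KO risers. For falls it was 73, which is 26.8% of the WT and 18.5% of the KO genes. In opposite directions there was 1 gene each way. WT and KO were measured on separate arrays against the same pool.

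Some cytoskeletal and matrix genes fell with heating time. Fewer cells of a kind and less RNA per cell cannot be told apart in these cultures. Of 10 measured tubulins, the subunits of microtubules, 4 fell by slope (Tuba1b, Tuba1c, Tubb5 and Tubb6) and 0 rose, with a median late minus early difference of -0.48. Tuba1b stood at -0.83, -1.54, -1.13 and -1.54 late, against 0.43, -0.75 and -1.0 early. It was thus below unheated cells from 1 h on, and the 1 h array still lay above all 4 late arrays. Its slope was -0.41 ± 0.08 (adjusted p = 0.00821), or -0.24 without 0.5 h (adjusted p = 0.437). The other 3 slopes were between -0.34 and -0.23, and none of these passed without 0.5 h (adjusted p = 0.704 to 0.75) or 8 h. Tubb5 and Tubb6 also missed the threshold without 4 h. Tuba1b also fell in KO cells, with a slope of -0.66 (adjusted p = 0.000117). Of 34 measured actin cytoskeleton genes 3 fell (Actn4, Tpm3 and Arpc4) and 0 rose, and 30 were lower late; among all genes 2.56% fell, 3.29% rose and 5532 of 10625 were lower late.

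Thbs1, the matrix protein thrombospondin 1, was the 1 matrix gene whose fall passed with any single array left out. It stood at -0.38, -0.93, -0.92 and -1.15 from 3 to 8 h, against 0.14, 0.12 and -0.08 from 0.5 to 2 h. The windows did not overlap, and the fall began after 2 h. Its window difference was -0.91 ± 0.17 (adjusted p = 0.0625) and its slope -0.36 ± 0.06 (adjusted p = 0.00264), with adjusted p at most 0.0296 with any array left out. In KO cells its slope was -0.26 (adjusted p = 0.0156). Of 42 measured extracellular matrix genes and proteases 4 fell (Thbs1, Col8a1, Col4a2 and Fbln1) and 1 rose (Loxl2), against 2.56% and 3.29% of all genes. Of 11 measured fibroblast markers 2 fell (Pdgfra and Ddr2), 0 rose and 10 were lower late (5532 of 10625 for all genes). Pdgfra, a growth factor receptor of fibroblasts, stood at -0.47, -0.39, -0.90 and -0.75 late, against 0.16, 0.14 and -0.10 early. Its slope was -0.27 ± 0.06 (adjusted p = 0.0167) and did not pass without 0.5, 2, 6 or 8 h.

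**Figure D4:**
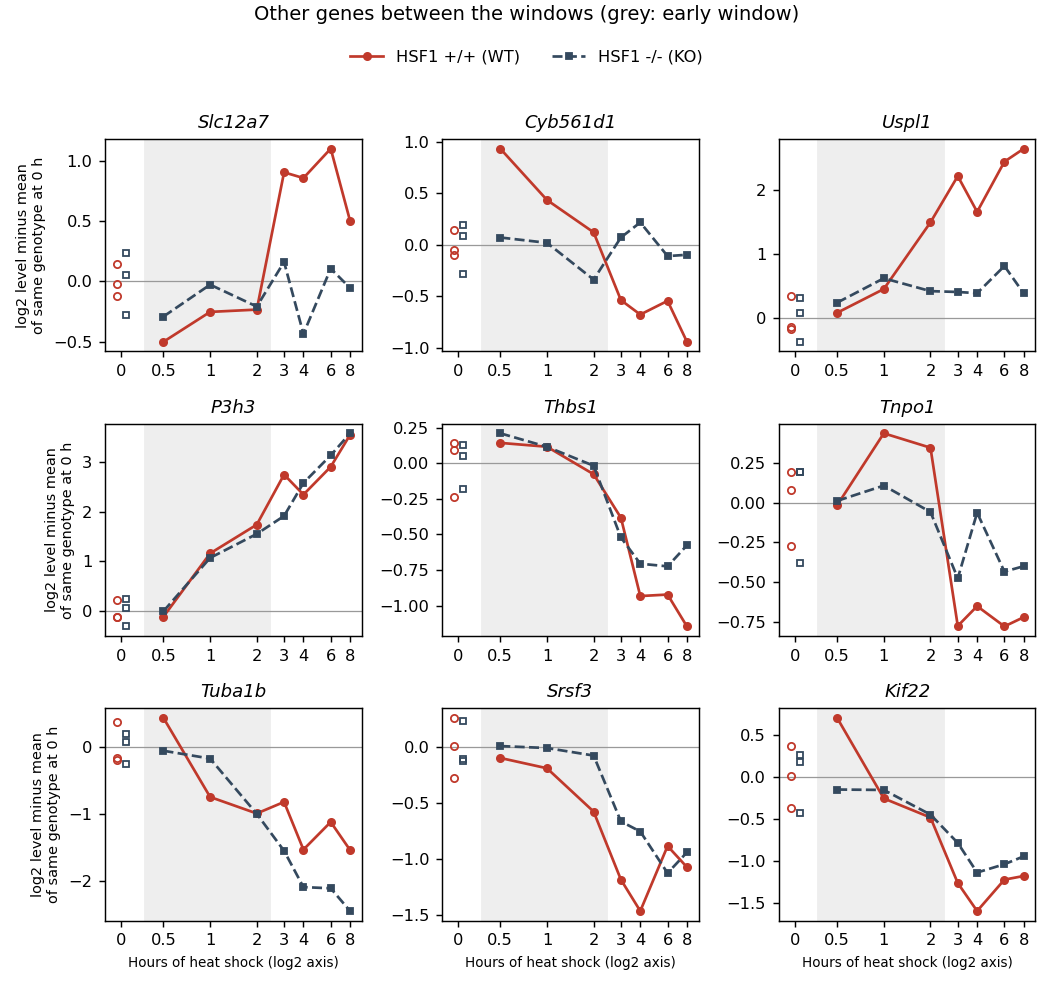
Levels of 9 genes outside the known heat-inducible list (vertical axis, log2 minus the mean of unheated cells of the same genotype) by hours of heat shock on a log2 axis, with symbols as in the plot of heat-inducible genes. Slc12a7 and Tnpo1 step between 2 and 3 h, P3h3 climbs alike in both genotypes, and Tuba1b in WT lies at -0.75 by 1 h.

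Splicing, mitosis and DNA replication lists held few called genes, and their counts stand beside 2.56% of all genes that fell by slope and 3.29% that rose. Of 47 splicing factors and hnRNPs 4 fell (Srsf3, Hnrnpab, Ptbp1 and Sf3b2) and 1 rose (Snrpc). Srsf3, a splicing factor read by 10 probes, stood at -1.18, -1.46, -0.88 and -1.07 late, against -0.10, -0.19 and -0.57 early. All late arrays lay below all early ones, with a slope of -0.30 ± 0.08 (adjusted p = 0.0293), lost without 0.5 h (adjusted p = 0.324) or 1 h (adjusted p = 0.0635). Ptbp1 was set apart by 1 array: it read 4.36 at 0.5 h and -0.06 to 0.75 on the other 6. Tnpo1, a nuclear import receptor, stood at -0.78, -0.65, -0.78 and -0.72 late, against -0.02, 0.44 and 0.35 early. Its window difference was -0.99 ± 0.17 (adjusted p = 0.0562) and its slope -0.29 ± 0.09 (adjusted p = 0.055), and neither passed.

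Of 40 mitosis genes 2 fell (Ccna2 and Kif22), a count near the 2.56% of all genes, and 0 rose. Lower late were 34 of the 40, against 5532 of 10625 for all genes, and in 10 all late arrays lay below all early ones (6.55% of all genes). At an unadjusted p under 0.05 in the window test 16 of the 40 were lower late and 0 higher, against 769 and 758 of all 10625 genes. Kif22, a kinesin that moves chromosomes, stood at -1.27, -1.60, -1.22 and -1.18 late, against 0.70, -0.26 and -0.48 early. Its slope was -0.50 ± 0.09 (adjusted p = 0.0037), or -0.37 without 0.5 h (adjusted p = 0.263). Ccna2, the S and G2 cyclin, had a slope of -0.18 ± 0.05 (adjusted p = 0.0376) that was lost without 0.5, 2, 4 or 6 h and turned to 0.15 with 1 probe per gene (adjusted p = 0.591). Of 39 DNA replication genes 2 fell (Tk1 and Rrm2, both needed for nucleotide supply) and 1 rose (Pole), again near the shares of all genes. The slope of Rrm2 turned to 0.048 with 1 probe per gene (adjusted p = 0.863). Tk1 stood at -0.11, -0.95, -0.81 and -1.26 late, against 0.93, -0.15 and -0.36 early (slope -0.47 ± 0.09, adjusted p = 0.005, or -0.36 with adjusted p = 0.271 without 0.5 h). Of 9 measured core histone genes 2 fell (H2ax and H3f3b) and 1 rose (H2aj), against 2.56% and 3.29% of all genes. Each of these calls was lost in some fit with 1 WT array left out. The highest adjusted p was 0.359 for H2ax, 0.3 for H3f3b and 0.0983 for H2aj.

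Cytosolic ribosomal proteins gave 0 calls by slope in either direction among 63 measured, although 59 were higher late (5093 of 10625 for all genes), by a median of 0.18. At an unadjusted p under 0.05 in the window test 1 was higher late and 0 lower, against 758 and 769 of all 10625 genes. Their median level was 0.04, -0.57, -0.17 and -0.21 from 3 to 8 h, against -0.20, -0.55 and -0.52 from 0.5 to 2 h, so the 4 h array lay with the early ones. The respiratory chain moved with them across arrays, at 0.00, -0.51, -0.31 and -0.34 late, against -0.13, -0.37 and -0.37 early. The part of array differences common to abundant transcripts was not tested. Rrn3 and Polr1b, which serve the polymerase that makes ribosomal RNA, rose among 32 ribosome biogenesis genes, of which 0 fell. By slope 3.29% of all genes rose and 2.56% fell. Rrn3 stood at 0.53, 0.59, 0.59 and 1.31 late, against -0.81, -0.01 and 0.03 early (slope 0.44 ± 0.07, adjusted p = 0.00174, or 0.39 with adjusted p = 0.134 without 0.5 h).

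Other lists held few called genes, where 3.29% of all genes rose by slope and 2.56% fell. Of 34 interferon and inflammatory response genes 1 rose, Irf9, a factor that carries interferon signals to the nucleus. It stood at 1.56, 0.77, 1.55 and 1.52 late, against -0.18, 0.81 and 0.63 early, with a slope of 0.38 ± 0.07 (adjusted p = 0.00571), or 0.27 without 0.5 h (adjusted p = 0.307). Of 73 respiratory chain genes 3 fell (Sdha, Ndufs1 and Uqcrc1), of 20 glycolysis genes 2 fell (Pfkl and Pfkm), and 0 rose in either. Of 24 genes of the endoplasmic reticulum chaperone and unfolded protein response list, Ern1 rose and Ppp1r15b fell. Ppp1r15b, a regulatory subunit of a phosphatase that restores translation, read 2.70 at 0.5 h and -0.45 to 0.51 on the other 6 arrays. Proteasome, lysosome and autophagy, apoptosis, and ATF4 target lists held 0 genes called by slope. Markers of macrophages, epithelium, endothelium, muscle and neurons held 0 called genes, and adipocyte markers held 1 (Retn) of 7.

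**Figure D5:**
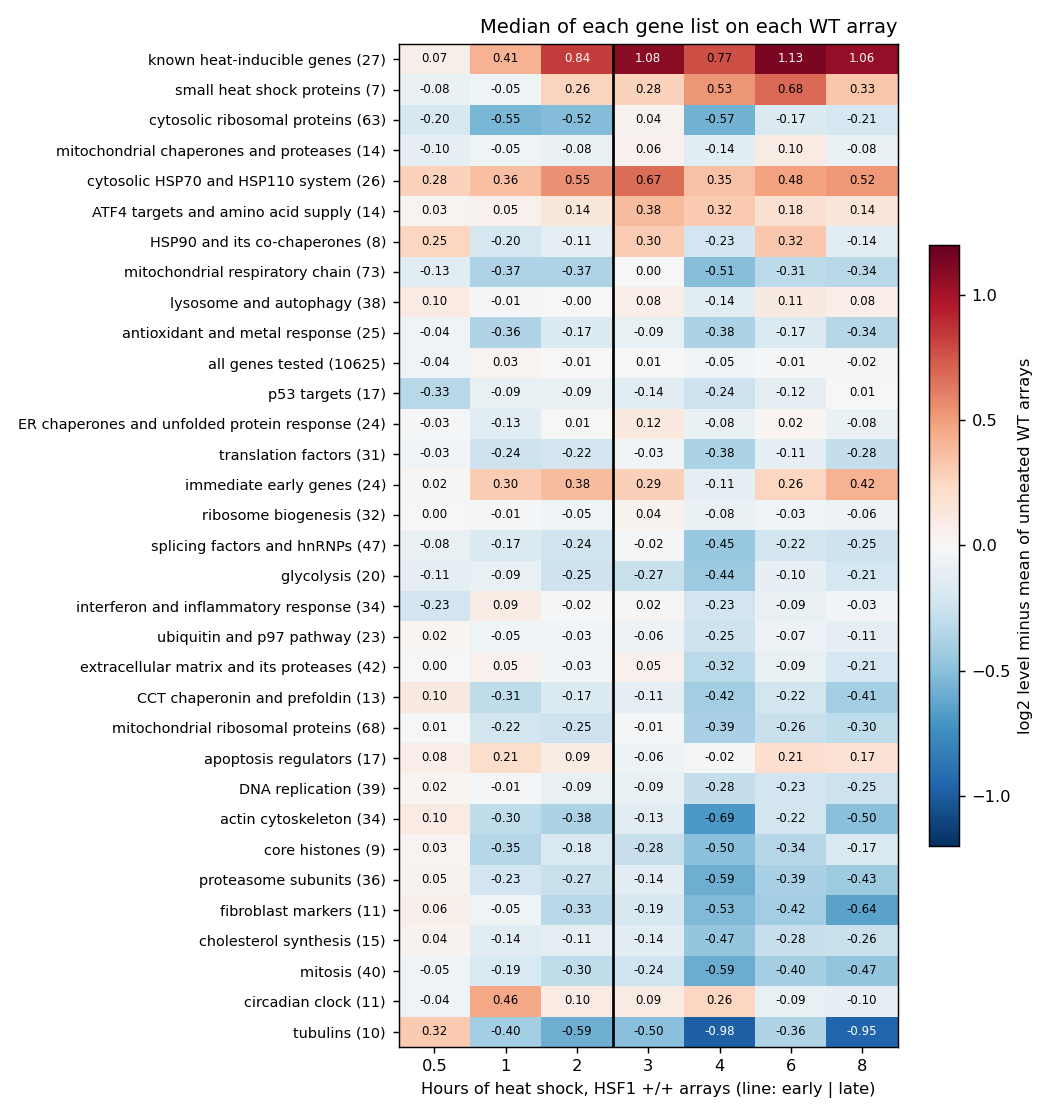
Median level of each gene list (rows, with the number of measured genes, ordered by late minus early difference) on each heated WT array (columns, hours), as log2 minus the mean of unheated WT cells; the black line divides the early from the late window. Known heat-inducible genes lie at 0.77 to 1.13 late, and tubulins at -0.98 to -0.36.

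Transient peaks were counted on the 10064 genes with all 7 values, as a description with no test. A peak was a highest value at least 1 above unheated cells and at least 1 above the highest value of the other window. There were 339 late peaks and 186 early peaks, and of the early ones 141 lay at 0.5 h. Lowest values gave 267 late troughs and 202 early troughs by the same rule. The late window held 4 arrays and the early window 3, which by itself favours late peaks and troughs, so these counts cannot be compared directly. The 0.5 h array had the largest median absolute deviation of the heated WT arrays (1.18). Several peaks were set by 1 array: Polr1a, a subunit of RNA polymerase I, read 4.22 at 3 h and -0.14 to 0.81 on the other 6. Gadd45a, a stress sensor that acts on growth arrest, read 3.95 at 4 h and 2.43 at 3 h, against 1.89 at 0.5 h, and was above unheated cells on all 7 arrays. Tef, a factor of the circadian output, was highest at 1 h with 1.19, and lay between -0.42 and -0.20 late. Such peaks had no second array of the same hour.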

How the data were processed

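The deposited values were log2 ratios of sample (Cy5) over pool (Cy3), 1 per probe and array, with dyes per the labels. No source gives the log base. Values reach 10.2, more than the 4.82 possible for log10 ratios of 16-bit signals; if they were natural logarithms, the folds given would be too small. Background correction, spot filters and normalization by the authors are not given in the sources used here, and spot intensities were not used, so signal over background was not examined.

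Of 42624 probes, 21701 listed 1 gene in the platform annotation, 1124 listed several and 19799 none; only the first kind was used. Arrays were centred on their medians. Probes needed at least 2 values in each of 6 groups (WT and KO at 0 h, early and late). Gene values were means of probes, each relative to its own mean, for 10625 genes, 5182 of them with 1 probe. Models were fitted with limma 3.58.1 (lmFit, eBayes, prior degrees of freedom 3.36, or 3.29 for slopes) in R 4.3.3 on all 20 arrays, with two-sided p-values adjusted by Benjamini-Hochberg across the genes and called at 0.05. The slope model had a mean for each 0 h group and an intercept and slope on log2 hours per genotype. The script was tested on simulated data. Early and late arrays share no hour, so no pairing exists within WT. The genotype comparison as reported was also unpaired, and a fit with the hour as a pair was an alternative setting.

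The members and gene lists were chosen with earlier results of these data known. Named genes were the 10 of smallest p in each direction of the window test, up to 4 per list, the known heat-inducible genes, the top 10 of the slope test, and the top 5 of the interaction. A few others, such as Ccna2, Rrm2, Tubb6, Pdgfra, Gadd45a, Polr1a and the list members named beside small counts, were chosen after their values were seen. Near-identical genes can bind each other's probes. The number of arrays limits the precision.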

Additional observations from a re-analysis of the deposited data

Results flagged for a closer look

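Cryab is listed because its change between the windows differed between the genotypes by a test of the difference itself, with WT minus KO at 1.62 on the log2 scale (limma, adjusted p = 0.0413). The call was lost with WT and KO arrays of the same hour as a block (adjusted p = 0.583).

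Of 102 sets of 4 late WT arrays examined (named genes, list medians and array summaries), 5 had 1 array far from the other 3. That count is near the 1 in 20 that chance gives. The 4 arrays are of different hours and not replicates, so a far value cannot be told apart from change with time. At 8 h Rrn3 read 1.31, against 0.59 for the nearest array, H2ax read -1.74, against -1.39, and Fos read 0.86, against 0.57. At 4 h Irf9 read 0.77, against 1.52 for the nearest, and the median of lysosome and autophagy genes was -0.14, against 0.08.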

How the results depend on the processing

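The window test called 2 genes as reported, 1 without centring, 9 after quantile normalization, 12 with genes that have a value on all 20 arrays, 38 with 2 h counted as late, and 0 with 3 h counted as early, with 1 probe per gene, or with only the 7 heated or the 10 WT arrays in the fit. Leaving out each WT array gave 0 to 175. The slope test called 622, 400 with arrays scaled to the same width, 60 with only the 7 heated WT arrays, and 39 to 768 with 1 array left out. On hours in place of their logarithm it called 233, and without both 0.5 h arrays 45; these settings, and the test of the difference of slopes, were chosen after seeing the data. Within 1.5 times of 622 were no centring (257 higher and 279 lower), quantile normalization (271 and 178), 1 probe per gene (377 and 303), all 20 arrays (368 and 335) and at least 1 value per group (336 and 247). The genotype interaction called 1 gene, 2 without centring (neither of them Cryab), 0 after quantile normalization, width scaling or with 1 probe per gene, and 0 to 1 with 1 array left out.

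With the hour as a replicate block, pairing WT and KO arrays, the interaction called 0 genes (810 at an unadjusted p under 0.05), and Cryab had 1.62 with adjusted p = 0.583. No paired analysis was possible within WT because early and late arrays share no hour. Cryab's interaction ranged from 1.35 without centring (adjusted p = 0.147) to 1.76 without the 4 h array, with adjusted p = 0.0638 after quantile normalization and 0.0537 after width scaling.

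Among single genes, the slope of Trim47 turned to -0.14 with 1 probe per gene and with a value on all 20 arrays (adjusted p = 0.641 and 0.596), Ccna2 to 0.15 (adjusted p = 0.591) and Rrm2 to 0.048 (adjusted p = 0.863) with 1 probe per gene. Of genes called by slope, 62.3% of risers and 40.1% of fallers rest on 1 probe, against 48.8% of all genes. Where several probes were read, all pointed the same way in 98 of 132 risers and 148 of 163 fallers. One array per hour and 10625 tests limit what could be called; spot signal was not examined.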

Other observations

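Vmp1, a membrane protein of autophagosome formation, and Trim47, a ubiquitin ligase, were among the 10 smallest p-values of the window test for genes higher late, and neither passed it. Vmp1 stood at 0.99, 1.14, 1.15 and 1.40 from 3 to 8 h, against -0.31, -0.14 and -0.04 from 0.5 to 2 h, and was higher at every step. Its window difference was 1.33 ± 0.26 (SE, limma adjusted p = 0.0707) and its slope 0.48 ± 0.11 (adjusted p = 0.0201), lost without 0.5 h (adjusted p = 0.182) or 8 h (adjusted p = 0.0717). Trim47 stood at 0.08, 0.21, -0.40 and 0.53 late, against -1.35, -1.57 and -0.95 early. Its 2 probes disagreed, with late minus early differences of -0.14 and 2.93, so the mean course rests on 1 of them.

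Xrcc6, the Ku70 subunit that binds broken DNA ends, was high early and near unheated cells late: -0.42, 0.08, -0.50 and -0.08 from 3 to 8 h, against 0.80, 0.41 and 1.38 from 0.5 to 2 h. Its window difference was -1.09 ± 0.22 (adjusted p = 0.0707) and its slope did not pass (adjusted p = 0.113).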
